A study of Rattus norvegicus with 15 samples.

Results

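The genes of myeloid activation and of leukocytes considered here, 9 in all, were Gpr84, Cd53, Ly86, Pycard, Cd68, Ptprc, Lyz2, Plac8 and Slc22a4. Their RNA was measured in rat ventral tegmental area (VTA), where dopamine neurons that project to the forebrain reward circuit lie. They were chosen by symbol from earlier results on these same arrays, so the difference between ethanol and water rats had already been seen when the list was made. All 9 genes were on the array, with 10 probe sets that the annotation ties to exactly 1 gene symbol, among 31042 probe sets and 14217 genes named in that way. A probe set is a group of short DNA probes for 1 transcript. The study measured RNA on Affymetrix rat arrays, with 1 array for each of 7 rats that drank ethanol and 8 age-matched rats that drank water. Per the series title the animals were alcohol-preferring (P) rats, selected over generations for drinking ethanol freely, studied after loss-of-control drinking, and the labels name no other allele or agent in either group. Sex, litter, the age itself and the interval since the last drinking session were not stated. Nothing in the labels ties a rat to a batch. The deposited design text speaks instead of lines with high and with low intake, which the sample labels do not separate.

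Microglia, the resident macrophages of the brain, carry out phagocytosis and answer injury and infection, and their numbers and state are read in tissue RNA from transcripts that neurons and other glia hold at low levels. Activated microglia and macrophages raise receptors for metabolites, adaptors of innate immunity, lysosomal proteins and lysozyme, while the pan-leukocyte surface proteins Cd53 and Ptprc mark microglia as well as cells that enter from blood. Myeloid gene transcription depends on PU.1, a factor of the ETS family whose binding sites are built on a GGAA core. In bulk tissue, more cells of a type and more RNA per cell cannot be told apart.

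Of the 8 members with a promoter window in the RefSeq table, 6 carry the ETS core GGAAGT, read on either strand, and 2 do not. The core was found in 22.6% of all promoter windows. It was an alternative to the motifs planned, GAGGAAGT for PU.1 and TGAGTCA for AP-1, each found in 1 of the 8. The promoters are shown with the core marked. Each stretch holds the 120 bases just before the annotated transcript start, 5′ to 3′ on the strand of the gene, on build GRCr8, with matches to GGAAGT or its reverse complement in capitals.
Gpr84, chr7:136324574-136324693, minus strand: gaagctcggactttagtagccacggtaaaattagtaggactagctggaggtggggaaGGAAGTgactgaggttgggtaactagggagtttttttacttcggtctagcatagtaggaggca
Cd53, chr2:197087897-197088016, minus strand: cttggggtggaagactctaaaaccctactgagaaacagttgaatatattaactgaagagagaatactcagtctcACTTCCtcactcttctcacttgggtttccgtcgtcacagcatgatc
Pycard, chr1:192033420-192033539, minus strand: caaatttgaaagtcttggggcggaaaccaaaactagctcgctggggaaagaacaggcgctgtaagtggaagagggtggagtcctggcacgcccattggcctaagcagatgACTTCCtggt
Cd68, chr10:54882442-54882561, minus strand: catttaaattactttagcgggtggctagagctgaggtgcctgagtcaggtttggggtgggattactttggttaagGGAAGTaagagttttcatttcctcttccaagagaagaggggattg
Ptprc, chr13:52259747-52259866, minus strand: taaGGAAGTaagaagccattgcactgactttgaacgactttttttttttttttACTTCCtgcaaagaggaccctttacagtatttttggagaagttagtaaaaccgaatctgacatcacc
Lyz2, chr7:54798012-54798131, minus strand: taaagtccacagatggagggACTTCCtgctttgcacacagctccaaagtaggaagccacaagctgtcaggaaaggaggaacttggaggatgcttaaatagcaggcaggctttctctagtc
Plac8, chr14:9356830-9356949, plus strand: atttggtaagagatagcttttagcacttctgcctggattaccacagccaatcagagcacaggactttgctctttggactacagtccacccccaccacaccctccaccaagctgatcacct
Slc22a4, chr10:38679921-38680040, minus strand: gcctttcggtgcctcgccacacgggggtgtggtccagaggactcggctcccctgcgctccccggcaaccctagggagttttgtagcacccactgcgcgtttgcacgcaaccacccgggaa

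Over windows of 300 bases around the start, GGAAGT was found in the promoters of Gpr84, Cd53, Pycard, Cd68, Ptprc and Lyz2, and in 22.6% of all 33469 windows of that length. The match lay 63 bases upstream of the start in Gpr84, 46 in Cd53, 45 in Cd68 and 10 in Pycard. Ptprc held matches 117 and 67 bases upstream, and Lyz2 held them 231 and 100 bases upstream. The longer PU.1 motif GAGGAAGT, which contains the core, was found in Cd53 alone, against 2.42% of all windows. The AP-1 motif TGAGTCA was found in Cd68 alone, against 4.63% of all windows. These are matches of letters and do not show that a factor binds. Ly86 is named only.

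Of the 10 probe sets, 8 (1 for each of 8 genes) had a mean of at least 6.94 log2 units over the 15 arrays, the 40th percentile used as the filter on dim probe sets. Cd68 and a second probe set of Ptprc lay below it. All 8 kept members averaged higher in ethanol rats, by 0.15 to 0.69 log2 units with a median of 0.36, a 1.28-fold difference, while the median over all 10252 kept genes was 0.0017. Because this difference chose the members, it is described and not tested. In the limma fit of all probe sets 6 of the 8 passed an adjusted p of 0.05, against 0.387% of all probe sets called higher in ethanol and 0.929% called in either direction, and nothing is read from that count. It lay between 2 and 6 when 1 rat was left out. With no filter on dim probe sets 3 of 9 members passed, and with the filter at the 20th percentile 4 of 9.

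Gpr84, a receptor for medium-chain fatty acids that activated macrophages and microglia induce, showed the cleanest separation. In water rats its values ran from 7.22 through a median of 7.43 to 7.58 log2 units, and in ethanol rats from 7.61 through 7.78 to 7.96. Every ethanol rat lay above every water rat, as in 0.247% of all probe sets, though the gap from water rat 5 to ethanol rat 7 was narrow. The means were 7.77 ± 0.12 (SD, n = 7) and 7.41 ± 0.13 (SD, n = 8), a difference of 0.36 (SE 0.06) or 1.29-fold. Gpr84 was the only kept member whose groups did not overlap.

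Slc22a4, a carrier of carnitine and ergothioneine in the plasma membrane, had the widest difference of the list. Its values ran from 6.17 through 6.80 to 7.14 in water rats and from 7.04 through 7.53 to 7.78 in ethanol rats. Water rat 5, the highest of its group, lay above ethanol rat 6, the lowest of the other, and the remaining rats of the groups were apart. The means were 7.45 ± 0.28 (SD, n = 7) and 6.76 ± 0.31 (SD, n = 8), a difference of 0.69 (SE 0.14) or 1.61-fold. The probe set sat close to the filter, at percentile 41.6 of mean level, and water rat 8 had its lowest value.

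Cd53 and Ptprc are the pan-leukocyte surface genes of the list. Cd53, a tetraspanin that organises signalling complexes in leukocyte membranes, ran from 8.05 through 8.17 to 8.41 in water rats and from 8.26 through 8.61 to 8.82 in ethanol rats. All ethanol rats but rat 6, or 6 of 7, lay above the highest water rat. The means were 8.56 ± 0.19 (SD, n = 7) and 8.20 ± 0.13 (SD, n = 8), a difference of 0.35 (SE 0.08) or 1.28-fold. Ptprc, which encodes the receptor phosphatase CD45 that acts on Src-family kinases, ran from 7.02 through 7.35 to 7.67 in water rats and from 7.61 through 7.76 to 7.87 in ethanol rats. Ethanol rat 7 lay below water rats 2 and 5, and the groups were otherwise apart. The means were 7.75 ± 0.09 (SD, n = 7) and 7.38 ± 0.23 (SD, n = 8), a difference of 0.38 (SE 0.09) or 1.30-fold. The water rats were spread 2.48 times as widely as the ethanol rats for Ptprc (ratio of SDs). The next highest ratio of water over ethanol was 1.10, for Gpr84 and Slc22a4. For Cd53 the ethanol rats were the more widely spread, with the lowest ratio, 0.69.

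The second Ptprc probe set did not show this separation. Its means were 5.17 ± 0.17 (SD, n = 7) with ethanol and 5.08 ± 0.12 (SD, n = 8) with water, a difference of 0.084 (SE 0.07), at percentile 12.7 of mean level, and 2 of 7 ethanol rats lay above the highest water rat. The size of the Ptprc difference therefore rests on 1 probe set.

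Among innate signalling proteins, Ly86 and Pycard were measured well above the filter. Ly86 encodes MD-1, the partner of the Toll-like protein Cd180, and ran from 7.90 through 7.995 to 8.22 in water rats and from 8.15 through 8.30 to 8.60 in ethanol rats. In 5 of 7 ethanol rats the value lay above the highest water rat. The means were 8.35 ± 0.17 (SD, n = 7) and 8.03 ± 0.13 (SD, n = 8), a difference of 0.32 (SE 0.07) or 1.25-fold. Pycard encodes ASC, the adaptor that joins inflammasome sensors to caspase-1, and ran from 7.90 through 7.97 to 8.16 in water rats and from 8.12 through 8.28 to 8.40 in ethanol rats. Water rat 4 alone reached the ethanol range. The means were 8.26 ± 0.10 (SD, n = 7) and 7.99 ± 0.08 (SD, n = 8), a difference of 0.27 (SE 0.05) or 1.21-fold. It had the largest difference of the list in units of the SD within groups, 3.08, against 2.86 for Gpr84 and 2.33 for Slc22a4.

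Lyz2, Plac8 and Cd68 overlapped broadly between the groups. Lyz2, the myeloid lysozyme that cleaves bacterial cell walls, ran from 10.75 through 10.86 to 11.09 in water rats and from 10.82 through 11.01 to 11.22 in ethanol rats, a difference of 0.15 (SE 0.06) or 1.11-fold. For Lyz2, 3 of 7 ethanol rats lay above the highest water rat. Plac8, a small cysteine-rich protein found in myeloid cells, ran from 6.30 through 6.93 to 7.30 in water rats and from 6.62 through 7.36 to 7.80 in ethanol rats, a difference of 0.41 (SE 0.17) or 1.33-fold. Its SDs, 0.38 in ethanol and 0.36 in water rats, were the widest of the list, so that a fold larger than that of Gpr84 came with 4 of 7 ethanol rats above the highest water rat. Cd68, a glycoprotein of late endosomes and lysosomes widely used to stain phagocytic cells, ran from 6.42 through 6.68 to 6.95 in water rats and from 6.40 through 6.70 to 6.98 in ethanol rats. Its difference of 0.042 (SE 0.09) was under its error, and at percentile 37.2 of mean level it was too dim to enter the fit. The label of myeloid activation was therefore not borne out by Cd68, whose 2 groups covered nearly the same range.

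**Figure D1:**
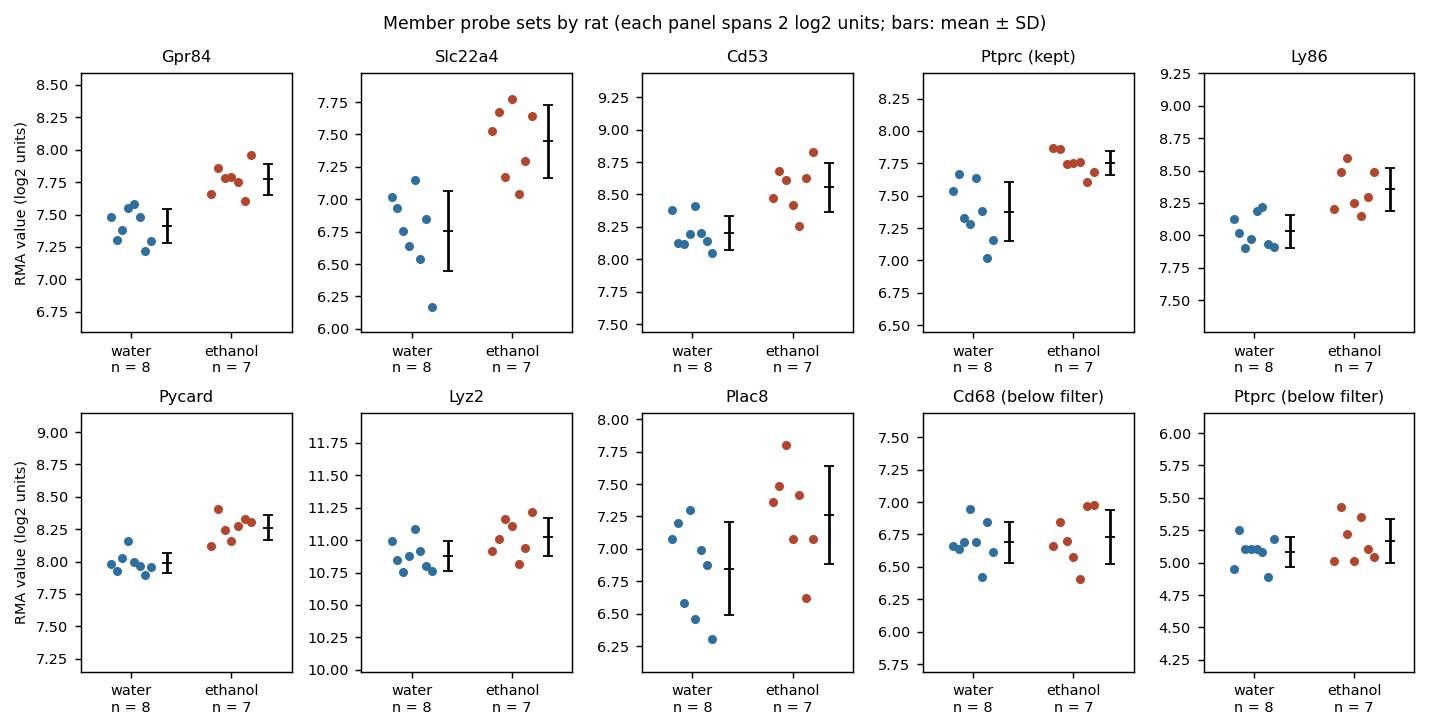
RMA values (log2 units, vertical axis) of the 10 member probe sets in 8 water and 7 ethanol rats, with 1 point per rat and bars for mean ± SD; each panel spans 2 log2 units. In Gpr84 all ethanol rats (7.61 to 7.96) lie above all water rats (7.22 to 7.58), while Cd68 and the dim Ptprc probe set overlap almost fully.

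The same rats tended to be high or low across members. Water rat 8 was among the 2 lowest of its group in 7 of 8 kept members, and water rat 5 among the 2 highest in 6 of 8. Ethanol rat 2 was among the 2 highest of its group in 6 of 8. Averaged over the 8 members, ethanol rats ran from 8.17 to 8.43 and water rats from 7.70 to 8.07 log2 units, an order that the choice of members favours. Transcripts of neurons and the secreted protein Spp1 varied widely between the same rats. The glutamate transporter Slc17a6 ran from 9.98 to 13.31 log2 units in water and from 11.15 to 12.76 in ethanol rats, and the neurofilament Nefl from 12.08 to 15.33 and from 12.57 to 14.95. The neurofilament Nefm ran from 11.85 to 15.15 and from 12.54 to 14.56, and Spp1 from 8.07 to 14.08 and from 9.02 to 13.33. Water rats 7 and 8, the lowest in the member mean, were the 2 highest in all 4 of these transcripts, and water rat 5 was the lowest in Slc17a6, Nefl and Nefm. These 4 genes were named after their values were seen, and the part of this spread in the member values was not tested.

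How members varied between rats of 1 group was not used to choose them. Deviations from the group means, over 15 arrays, correlated most for Ly86 with Lyz2 (r = 0.80), Cd53 with Lyz2 (r = 0.79), Cd53 with Ly86 (r = 0.77) and Gpr84 with Lyz2 (r = 0.71). Of the 28 pairs, 9 (32.1%) had r above 0.5, against 8.81% of all pairs of kept genes, and the medians were 0.34 and 0.01. Lyz2, Ly86, Cd53 and Gpr84 formed a block in which every pair had r of at least 0.58. Pycard and Plac8 stood outside it, with median r of 0.071 and 0.10 to the other members, and Slc22a4 varied with Lyz2 and Cd53 (r = 0.54 each) and with Ptprc (r = 0.50). These correlations share arrays and scaling and are given as a description.

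**Figure D2:**
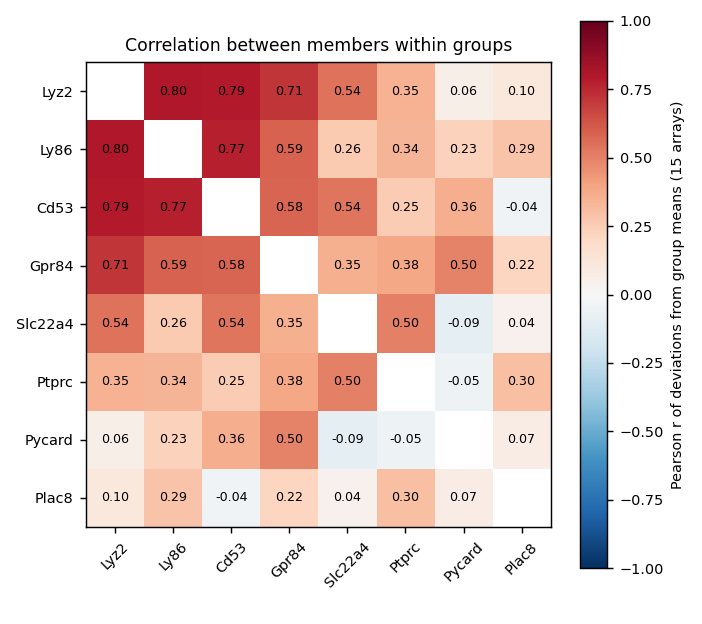
Pearson correlation (color scale) between the 8 kept members of their deviations from the group means over 15 arrays, with each r printed in its cell. Lyz2, Ly86, Cd53 and Gpr84 form a block of r from 0.58 to 0.80, and Plac8 and Pycard are mostly under 0.4.

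The members were then set against microglial markers. A mean was taken over 15 kept microglial markers with no member among them. These included the purinergic receptor P2ry12, the fractalkine receptor Cx3cr1, Csf1r, Aif1 and the C1q chains. Gpr34, Fcer1g, Tyrobp and Trem2, also in the mean, were called higher in ethanol rats by limma. The differences of the 15 ran from -0.051 for Mertk to 0.89 for Gpr34, and the list was drawn up with earlier results of these data known. On this mean ethanol rats averaged 9.43 ± 0.09 (SD, n = 7) and water rats 9.17 ± 0.14 (SD, n = 8), a difference of 0.25. Water rat 5 had the highest water value, 9.39, which lay inside the ethanol range of 9.30 to 9.58. Water rat 8 had the lowest, 8.98.

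Within the 8 water rats, 4 of 8 members passed an exact permutation test of Pearson's r with this mean (two-sided, adjusted over the 8 members). Gpr84 had r = 0.89 (rho = 0.86, exact p = 0.0031 for r and 0.011 for rho, adjusted p = 0.018 and 0.021). Lyz2 had r = 0.88 (rho = 0.90, exact p = 0.0045 and 0.0046, adjusted p = 0.018 and 0.018). Ly86 had r = 0.84 (rho = 0.88, exact p = 0.0082 and 0.0072, adjusted p = 0.022 and 0.019) and Cd53 had r = 0.83 (rho = 0.90, exact p = 0.013 and 0.0046, adjusted p = 0.027 and 0.018). Ptprc had r = 0.75 (rho = 0.67, exact p = 0.033 and 0.083, adjusted p = 0.053 and 0.13) and Slc22a4 r = 0.58 (rho = 0.48, exact p = 0.13 and 0.24, adjusted p = 0.18 and 0.32). Pycard had r = 0.33 (rho = 0.43, exact p = 0.44 and 0.30, adjusted p = 0.50 and 0.34) and Plac8 r = 0.19 (rho = 0.26, exact p = 0.65 and 0.54, adjusted p = 0.65 and 0.54). Without water rats 5 and 8, the farthest from the median of the marker mean, r was 0.86 for Gpr84 (exact p = 0.028, n = 6), 0.76 for Ly86 (exact p = 0.074), 0.73 for Lyz2 (exact p = 0.093) and 0.58 for Cd53 (exact p = 0.24), and it turned to -0.29 for Slc22a4 (exact p = 0.60). The relations of Ly86, Lyz2 and Cd53 therefore rest in part on those rats. None of the 8 members passed without water rat 5 alone or without water rat 8 alone. Those rats also stood at or near opposite ends of the range of Slc17a6, Nefl and Nefm among water rats, and the part of that in these correlations was not tested.

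Within the 7 ethanol rats none of the 8 members passed after adjustment, and 2 had an unadjusted exact p under 0.05. Cd53 had r = 0.85 (rho = 0.86, exact p = 0.017 and 0.024, adjusted p = 0.13 and 0.095) and Gpr84 r = 0.77 (rho = 0.71, exact p = 0.041 and 0.088, adjusted p = 0.13 and 0.18). Ly86, Lyz2 and Pycard had r of 0.75, 0.70 and 0.69 (rho of 0.86, 0.79 and 0.68, exact p of r = 0.054, 0.079 and 0.082, exact p of rho = 0.024, 0.048 and 0.11, adjusted p of r = 0.13 each and of rho = 0.095, 0.13 and 0.18). Slc22a4 was at r = 0.36 (rho = 0.29, exact p = 0.42 and 0.56, adjusted p = 0.52 and 0.64), Plac8 at r = -0.10 (rho = 0.072, exact p = 0.83 and 0.89, adjusted p = 0.83 and 0.89) and Ptprc at r = -0.34 (rho = -0.50, exact p = 0.46 and 0.27, adjusted p = 0.52 and 0.36). Without ethanol rats 1 and 8, r was 0.91 for Cd53 (exact p = 0.033, n = 5), 0.77 for Ly86 (exact p = 0.12) and 0.38 for Gpr84 (exact p = 0.51). Whether r differed between the groups was not tested. Ptprc had r of 0.75 in water and -0.34 in ethanol rats, and the latter was 0.38 without ethanol rats 1 and 8.

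**Figure D3:**
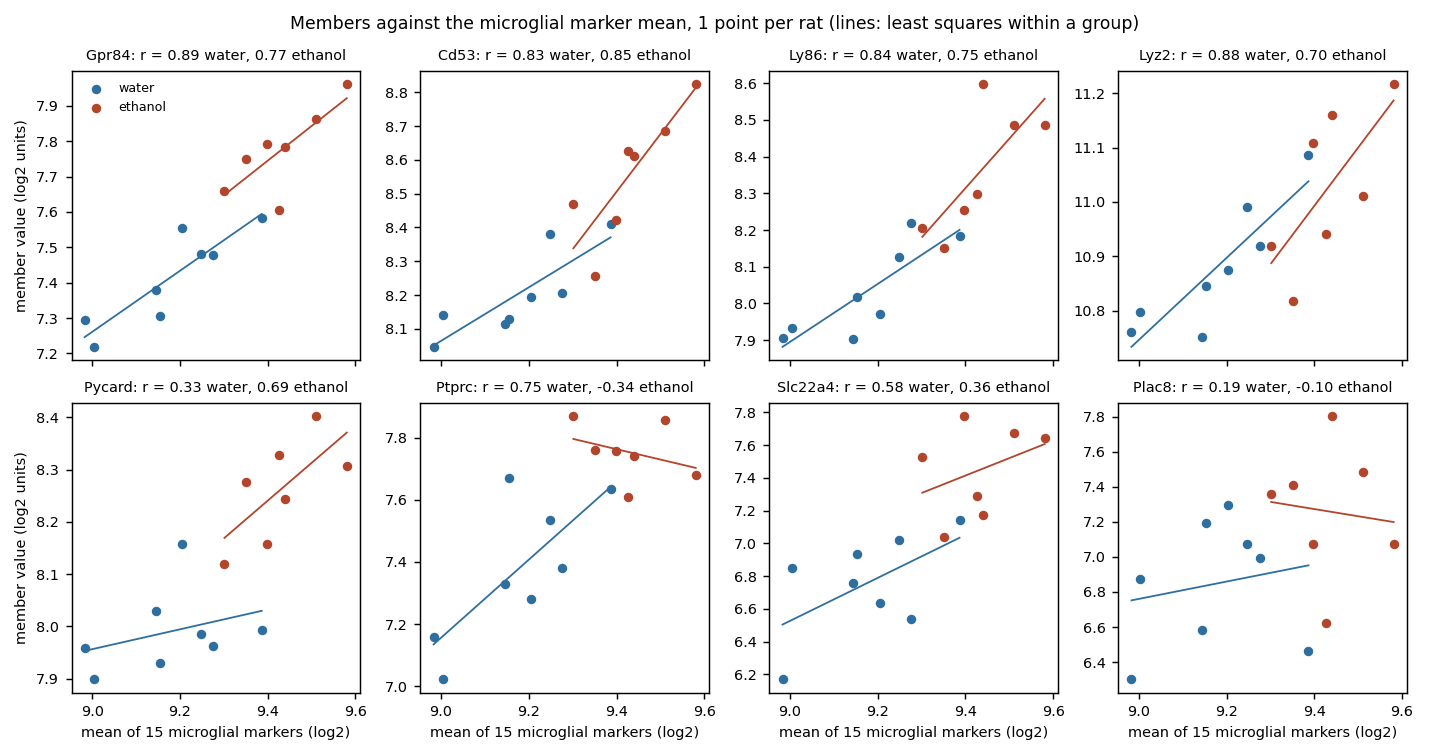
Values of the 8 kept members (vertical axis, log2 units) against the mean of 15 microglial markers (horizontal axis, log2 units), with 1 point per rat and least-squares lines within water and ethanol rats. For Gpr84, Cd53, Ly86 and Lyz2, r lies between 0.70 and 0.89 in the groups. In water rats they pass the test only while rats 5 and 8 are kept. None passes over all 7 ethanol rats, and Gpr84 passes there only without ethanol rat 7. Plac8 has r of 0.19 and -0.10.

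The difference at equal marker mean was smaller in all 8 kept members. With the microglial mean as a covariate in the fit, the difference of Cd53 went from 0.35 to 0.084 (SE 0.08), that of Ly86 from 0.32 to 0.078 (SE 0.08), and that of Lyz2 from 0.15 to -0.070 (SE 0.07). Gpr84 kept 0.13 (SE 0.06) of 0.36. Ptprc kept 0.18 (SE 0.12), Pycard 0.18 (SE 0.07) of 0.27, Slc22a4 0.37 (SE 0.19) of 0.69 and Plac8 0.36 (SE 0.27) of 0.41. In this fit 0 of 8 members passed the adjusted threshold. Of all 18625 probe sets only 30 were called higher and 356 lower, so nothing is read from that count. The covariate differs between the groups itself, so the values describe the overlap of the measures. Whether members differ from each other in what remains was not tested.

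**Figure D4:**
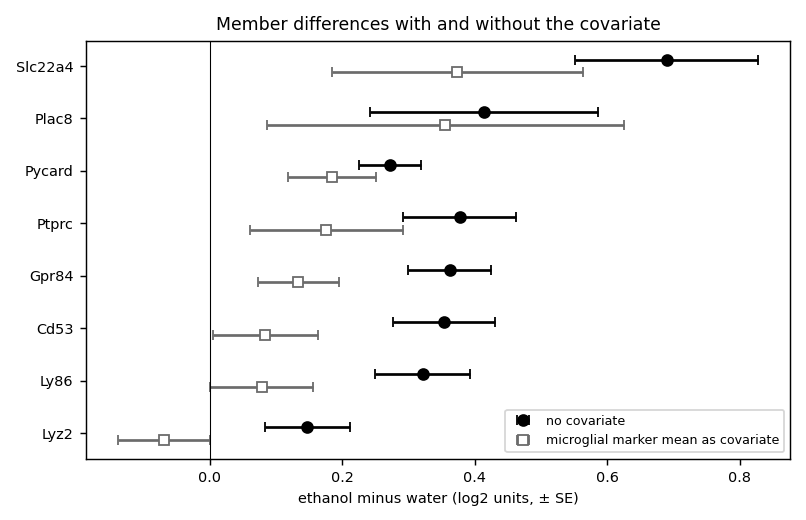
Ethanol minus water difference (log2 units, horizontal axis, bars ± SE) of the 8 kept members without a covariate (filled circles) and with the mean of 15 microglial markers as a covariate (open squares). Lyz2, Ly86 and Cd53 move to within about 1 SE of 0. Slc22a4 goes from 0.69 to 0.37 (SE 0.19) and Plac8 from 0.41 to 0.36 (SE 0.27).

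The 5 genes that follow were those nearest the members within groups, ranked over 10175 genes by r of their deviations with the mean of the 8 members' deviations over 15 arrays. They were Tyrobp, the signalling adaptor of Trem2 (r = 0.92), the lysosomal ribonuclease Rnaset2 (r = 0.91), the membrane protein Tmem176b (r = 0.89), the Fc receptor gamma chain Fcer1g (r = 0.88) and the microglial calcium-binding protein Aif1 (r = 0.87). Rnaset2 rose from 11.36 ± 0.10 (SD, n = 8) to 11.61 ± 0.10 (SD, n = 7), by 0.25 log2 units (SE 0.05, limma adjusted p = 0.031). Tmem176b rose by 0.35 (SE 0.07, limma adjusted p = 0.033). With 1 rat left out, Rnaset2 did not pass in 9 of 15 fits and Tmem176b in 10 of 15, with adjusted p up to 0.078 in each. Tyrobp, Fcer1g and Aif1 are also among the 15 microglial markers.

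Genes that work beside the members were taken from 8 lists set by role. Of 184 listed genes that are no members, 76 were kept, 5 rose and 1 fell (limma, adjusted over all 18625 probe sets), or 7.89% called, against 1.14% of all kept genes (0.497% higher and 0.644% lower). The median difference of the 76 was 0.071, and 60 of them averaged higher in ethanol rats, or 78.9%, against 50.9% of all kept genes. Because the lists were drawn up with earlier results of these data known, these shares are a description and nothing is read from them. The count of 6 dropped to 1 when ethanol rat 2 or 7 was omitted, to 2 on omitting any of ethanol rats 4, 6 and 8 and water rats 1 and 2, and to 3 on omitting any of water rats 3, 4 and 7. With the microglial mean as a covariate none of the 5 rises passed (adjusted p from 0.39 to 0.88), and 4 genes of the 76 were called, all lower. In that fit 30 of all 18625 probe sets were called higher and 356 lower.

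Of 13 kept leukocyte surface genes, none of them a member, 2 rose and none fell. Cd33, a sialic-acid-binding receptor of myeloid cells, rose from 7.80 ± 0.12 (SD, n = 8) to 8.17 ± 0.16 (SD, n = 7), by 0.37 (SE 0.07, limma adjusted p = 0.016), and passed in each of the 15 fits with 1 rat left out. With the microglial covariate the difference was 0.16 (adjusted p = 0.39). Laptm5, a lysosomal membrane protein of leukocytes, rose by 0.30 (SE 0.06, limma adjusted p = 0.029). That call ended in 10 of 15 fits with 1 rat left out, where the adjusted p reached 0.074. With the covariate the difference was 0.12 (adjusted p = 0.52). The list median was 0.061.

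Of leukocyte kinases, phosphatases and cytoskeletal genes, 1 of 13 rose and none fell, with 12 of 13 averaging higher in ethanol rats and a median of 0.18. Rac2, the small GTPase of blood cells that activates the phagocyte oxidase, rose by 0.29 (SE 0.06, limma adjusted p = 0.046), and did not pass in 13 of 15 fits with 1 rat left out. With the covariate it was at 0.12 (adjusted p = 0.55). Of the 13 genes, 8 had an unadjusted p under 0.05.

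In the lists set by the roles of Gpr84, Ly86 and Pycard no gene passed. None of 6 metabolite and chemoattractant receptors was called by limma (3 at an unadjusted p under 0.05, median 0.16), and Cx3cr1 and Cxcr4 were at 0.19 and 0.20 (adjusted p = 0.15 and 0.20). Cx3cr1 is also among the 15 microglial markers. None of 5 genes of the MD-1 and endotoxin receptor list was called (0 at an unadjusted p under 0.05, median 0.096), with Tlr2 at 0.23 and Myd88 at 0.13 (limma adjusted p = 0.45 and 0.55). Cd180, the receptor that MD-1 binds, as well as Tlr4 and Cd14, were below the filter. None of 4 inflammasome genes was called (1 at an unadjusted p under 0.05, median 0.086), with the inflammatory caspase Casp4 at 0.21 and Il18 at 0.073 (limma adjusted p = 0.24 and 0.68). Casp1, Il1b and Gsdmd, which act downstream of Pycard, were below the filter.

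Of 20 endosome and lysosome genes kept, 2 rose and 1 fell. Ctss, a cysteine protease of antigen-presenting cells, rose by 0.36 (SE 0.08, limma adjusted p = 0.041) and Npc2, a carrier of cholesterol out of lysosomes, by 0.26 (SE 0.05, adjusted p = 0.031). Ctsl, a cysteine protease of lysosomes in many cell types, fell by 0.23 (SE 0.05, limma adjusted p = 0.027), and its groups did not overlap, as in 0.376% of all probe sets in that direction. With 1 rat left out the calls ended in 12, 9 and 6 of 15 fits. With the microglial covariate Ctss was at 0.027 (limma adjusted p = 0.88), Npc2 at 0.069 (adjusted p = 0.62) and Ctsl at -0.37 (adjusted p = 0.0024). The list median was 0.058.

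Of the secreted defence genes 3 were kept and none was called by limma (1 at an unadjusted p under 0.05, median 0.32). That median was the difference of Spp1, whose SE was 1.08. S100a4 was at 0.34 and Cst3 at 0.061 (adjusted p = 0.19 and 0.50), and 16 others, among them Lcn2, Tnf, Il6 and Ccl2, were below the filter. Of 12 relatives of Slc22a4 and genes of carnitine metabolism none was called (2 at an unadjusted p under 0.05, median -0.034). Slc22a23 was at -0.16 and Tmlhe, an enzyme of carnitine synthesis, at -0.097 (limma adjusted p = 0.069 and 0.36).

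**Figure D5:**
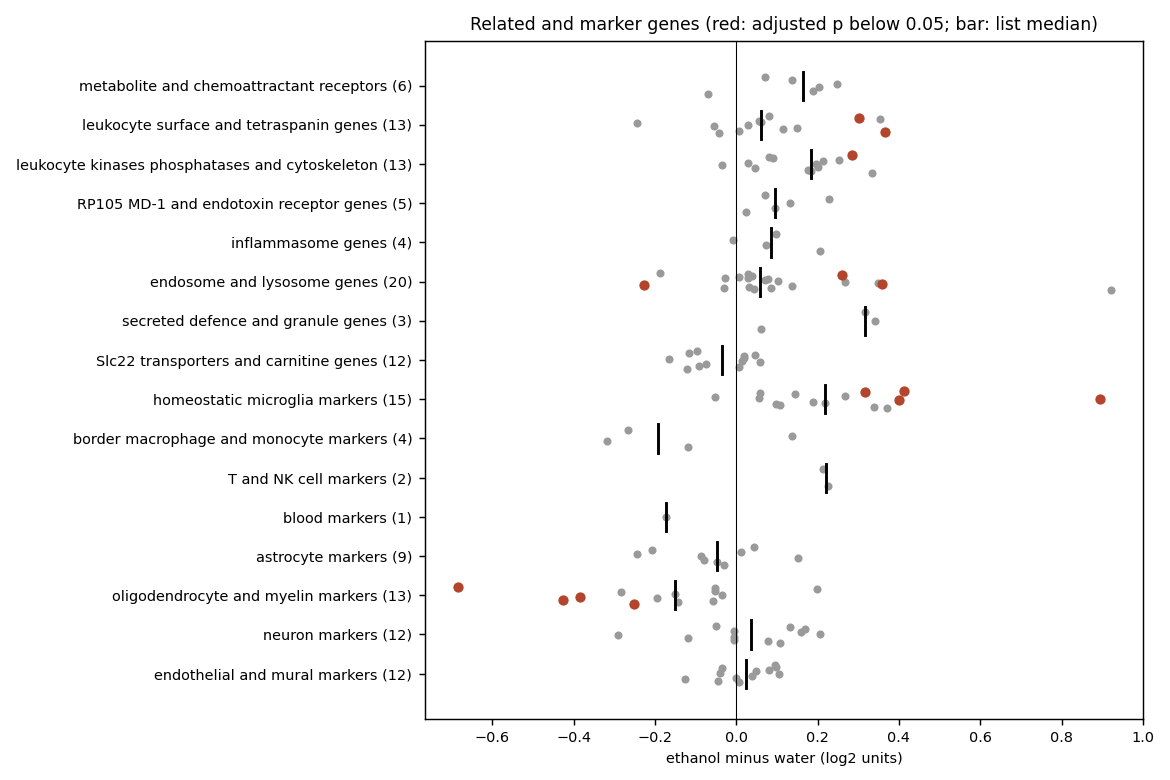
Ethanol minus water differences (log2 units, horizontal axis) of the kept genes of the related and marker lists (number kept in parentheses), with genes at limma adjusted p below 0.05 in red and list medians as bars. Called rises lie in the leukocyte, lysosome and microglia lists, and called falls in the myelin list and, for Ctsl, the lysosome list.

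Markers of the cell types that could carry these transcripts moved as follows. Of 15 kept microglia markers 4 rose and none fell, with a median of 0.22, against 0.497% of all kept genes called higher. The marker lists too were drawn up with earlier results of these data known, so nothing is read from their counts. The 4 were Gpr34 (0.89, limma adjusted p = 4.5e-04), Fcer1g (0.40, adjusted p = 0.0033), Tyrobp (0.41, adjusted p = 0.0082) and Trem2 (0.32, adjusted p = 0.024). The other 11 were not called. Among them were P2ry12 (0.27, limma adjusted p = 0.20), Csf1r (0.22, adjusted p = 0.23) and Sall1 (0.15, adjusted p = 0.50). Tmem119 was at 0.059 (limma adjusted p = 0.76) and Mertk at -0.051 (adjusted p = 0.79). The 4 called markers passed whichever rat was omitted. For Trem2 the adjusted p then reached 0.0497, and ethanol rat 8 stood apart from its group. Of 19 T and NK cell markers on the array 17 were below the filter, Cd3e, Cd3d and Cd3g among them, and the 2 kept, Lck and Cd6, were at 0.21 and 0.23 (limma adjusted p = 0.12 and 0.19). All 6 neutrophil and all 7 B cell markers on the array were below the filter. Of 14 border macrophage and monocyte markers 10 were below it, Mrc1, Cd163, Lyve1 and Ccr2 among them. The 4 kept had a median of -0.19 with none called by limma (2 at an unadjusted p under 0.05). With 10 of 14 below the filter, nothing about border macrophages or monocytes is read from that median. Vcan was at -0.27, Nr4a1 at -0.32 and Fn1 at -0.12, while Pf4 was higher in ethanol rats, at 0.14. The part of cells from blood or the brain's borders in the member differences was not tested beyond these values.

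The log2 of the summed level of the T and NK list ran from 10.08 to 10.21 in ethanol and from 9.97 to 10.10 in water rats, and that of the border list from 11.36 to 11.65 and from 11.50 to 11.88. Vcan had the highest mean of the border list, 10.07, and so weighed most in its sum. The neutrophil sum ran from 7.87 to 8.09 and from 7.81 to 8.08, and the B cell sum from 8.23 to 8.53 and from 8.29 to 8.41. The microglial sum ran from 13.52 to 13.82 in ethanol and from 13.17 to 13.64 in water rats, and the myelin sum from 17.46 to 17.68 and from 17.61 to 17.92. All of these ranges overlapped. The red cell marker Hbb was at -0.17 (limma adjusted p = 0.76), with 4 other blood markers below the filter.

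Outside the myeloid lists, 4 of 13 oligodendrocyte and myelin markers fell and none rose (median -0.15), against 0.644% of all kept genes called lower. Nothing is read from this count either. The 4 were Ugt8 (-0.69, limma adjusted p = 0.0041), Fa2h (-0.43, adjusted p = 0.021), Mal (-0.39, adjusted p = 0.037) and Cldn11 (-0.25, adjusted p = 0.037). With 1 rat left out, Ugt8 passed in all 15 fits, and Fa2h lost the call in 1, Mal in 9 and Cldn11 in 11. With the microglial covariate the falls were larger, at -1.08 for Ugt8, -0.71 for Fa2h, -0.58 for Mal and -0.42 for Cldn11. The part of this shift in the member differences was not tested. None of 9 astrocyte markers (2 at an unadjusted p under 0.05, median -0.047, Gjb6 at -0.24 and Slc1a2 at -0.21), 12 neuron markers (0, median 0.037, Slc18a2 at 0.21 and Slc6a3 at 0.16) or 12 endothelial and mural markers (0, median 0.024, Cldn5 at -0.13 and Tek at 0.097) was called by limma. The dopamine neuron enzyme Th was at 14.94 ± 0.22 (SD, n = 7) and 14.80 ± 0.26 (SD, n = 8), while Slc17a6, Nefl and Nefm of the same neuron list spread widely between rats, as given above. The 3'-minus-5' difference of the Actb and Gapdh control probe sets, a measure of RNA integrity, had a mean of 1.45 ± 0.05 over the ethanol rats and 1.47 ± 0.08 over the water rats (SD, two-sided exact permutation p = 0.51, adjusted over 2 measures 0.51). The first principal component, 30.7% of the variance, did not separate the groups at the threshold either (exact permutation p = 0.29, adjusted p = 0.51).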

How the data were processed

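The authors deposited log2 values made with RMA, per the submitters' processing notes, 1 per probe set and array. RMA corrects background, equalises the distribution of intensities between arrays and summarises probes, which compresses differences of dim probe sets. Per the labels, biotin-labelled RNA came from 25 ng of total RNA with 2 rounds of amplification, which favours 3' ends. Of 31099 probe sets on 15 arrays, 57 were controls. Gene symbols came from GEO's platform annotation (20826 probe sets with 1 symbol, 436 with several, 9780 with none), and all 9 members matched the RefSeq GRCr8 table by Entrez number. Several-symbol probe sets were tested but not named.

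Probe sets with a mean at or above the 40th percentile, 6.94, were kept (18625). The test was limma's lmFit and eBayes (version 3.58.1, R 4.3.3), two-sided, ethanol minus water, no covariate, with Benjamini-Hochberg adjustment over all of them and a threshold of 0.05. The fit was tested on simulated data. A gene was represented by its kept probe set with the highest mean. SDs are between rats, SEs are limma's, and the number of arrays limits the precision. Correlations used exact permutation of pairings within a group in Python 3.11.15, and array measures all 6435 divisions into 7 and 8.

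The members and the gene lists were chosen with earlier results of these data known. Named genes are the members, up to 4 called genes of each list (or the 2 with the smallest p), Th and the 5 genes most like the members. Named for other reasons after their values were seen are genes below the filter, Slc17a6, Nefl, Nefm, Spp1, Pf4 and Fn1. So are Sall1, Tmem119, Mertk and the example markers of the microglial mean. Alternatives were other filters, array centring, trend and robust eBayes, array weights, a replicate block, probe set averaging, a microglial covariate and each rat left out. The control and ethanol animals share 7 numbers. Promoter windows, 250 bases before to 50 after the start, came from RefSeq, GRCr8. Ethanol animal 3 was not analysed here.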

Additional observations from a re-analysis of the deposited data

Results flagged for a closer look

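None of the 20 groups of member values (10 probe sets in 2 groups) held a rat set apart from its group by Dixon's criterion. Of 104 groups of values examined in all, 7 did, where chance gives about 1 in 20. Ethanol rat 1 was the lowest of its group for Laptm5 (9.25, next 9.52) and for Ctss (13.25, next 13.46). Ethanol rat 8 was the highest of its group for Trem2 (8.53, next 8.25), and ethanol rat 5 the lowest for Gjb6 (10.92, next 11.21). Among water rats, rat 8 was the lowest for Myd88 (7.97, next 8.29), rat 7 the lowest for Lck (7.71, next 7.95) and rat 5 the highest for Slc22a23 (10.09, next 9.94).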

How the results depend on the processing

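The median difference of the members lay between 0.32 and 0.38 over the 15 fits with 1 rat left out. It was 0.15 with the filter at the 60th percentile, where Lyz2 alone was kept, and 0.15 with the microglial covariate, which turned Lyz2 to -0.070. The cause was not tested. The count of called probe sets, 173 in all, was 100 to 180 with 1 rat left out, with the lowest values without ethanol rat 7 (100) and ethanol rat 8 (102), 59 with the replicate block on 14 arrays and 386 (30 higher, 356 lower) with the microglial covariate. Related genes called, 6 in all, were 1 to 7 with 1 rat left out, 10 with array weights and 0 with the replicate block. Shared animal numbers gave correlations of deviations from -0.41 to 0.29, above 0.1 in 4 of 7 pairs, and 1 of 7 ethanol rats correlated best with its own number, so the numbers were not taken as pairs. With the replicate block, Gpr34 and Fcer1g passed (adjusted p = 0.037 and 0.045), and the other 12 called list genes named did not (adjusted p from 0.054 for Rac2 to 0.19). Members passing the correlation with microglial markers, 4 in water rats, were 0 to 5 with 1 water rat left out (0 without rat 5 or rat 8) and 1 with the filter at the 60th percentile, where 1 member was tested. In ethanol rats they were 0 to 1, with Gpr84 passing without ethanol rat 7. The PU.1 motif matched 1 member promoter, and its 6-letter core 6.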
